A study of Mus musculus with 12 samples.

Results

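RNAPII, the polymerase that makes messenger RNA, carries phosphate groups on its tail that change as it moves along a gene. In mouse embryonic stem cells (mESCs) the ChIP-seq list for RNAPII phosphorylated at serine 2 (Ser2p) held 1675 peaks. Of these, 627 shared not even 1 base with a peak of the serine 5 form (Ser5p), which was 37.4% (95% exact Clopper-Pearson interval 35.1 to 39.8). They are called Ser2p-only peaks here, and they are described against the 1048 Ser2p peaks that did overlap Ser5p and against the 4490 Ser5p peaks, of which 3517 overlapped no Ser2p. The peaks were thus chosen by the called positions in the Ser2p and Ser5p lists, so fold enrichment, width and distance to Ser5p are given as description. Position, the other peak lists, RNA and sequence did not enter the choice of peaks directly, but marks often found with Ser5p are tied to it. The RNA level in mESCs did pick the gene assigned to a peak.

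All libraries were single runs, so no value has a replicate, no test between libraries was made, and each interval covers counting error or the spread over peaks or genes within these libraries. Peaks of a gene are not independent of each other, so intervals over peaks may be too narrow. The cells were the E14 line of mESCs and NIH3T3, an established line of mouse embryonic fibroblasts, both grown in medium with serum and LIF and with no treatment. Ser2p and Ser5p were pulled down with antibodies to the modified polymerase, and the study's text places the Ser5p run in mESCs whose NELFA carried a tag. Ctr9, a subunit of the Paf1 elongation complex, was pulled down through a GFP tag knocked into its gene in each line, and NELFA, a subunit of the pausing factor NELF, through a GFP tag in mESCs. H3K27ac, an acetylated histone found at active promoters and enhancers, was pulled down in mESCs. RNA-seq was made from each line. The cell labels held in the RNA, with Pou5f1, Sox2, Nanog, Esrrb and Zfp42 between 211 and 1402 TPM (the length-scaled RNA level that kallisto gives per transcript) in mESCs and at most 0.511 in NIH3T3, and Col1a1, Col1a2, Col3a1, Thy1 and Postn between 0 and 5.69 TPM in mESCs and from 14.8 TPM upward in NIH3T3. The peak lists hold no read counts, so ChIP-seq depth is unknown, and the RNA-seq estimated counts summed to 26400407 in mESCs and 28849497 in NIH3T3.

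As background, Ser5p is placed early, by the kinase of TFIIH, when the polymerase leaves the promoter, and it is bound by the capping enzymes. Ser2p builds up as the polymerase elongates, laid down by P-TEFb and by Cdk12 and Cdk13, and it is highest near and past the 3′ end, where cleavage and polyadenylation factors such as Pcf11 bind it. The transcript is cut downstream of a hexamer in its last stretch, most often AATAAA or ATTAAA, while the polymerase runs on into the flanking DNA before it is released.

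The stretches below show what such a place looks like at Kif18b, a mitotic kinesin, Sars, the seryl-tRNA synthetase, and Mras, a small GTPase of the Ras family. They hold 3 of the Ser2p-only peaks of highest fold whose summit had a single candidate gene, lay past the gene end, was not near a gene start and had no annotated exon within 100 bases. For each gene the first line gives 30 bases around the hexamer (in capitals) near the end of its transcript with the highest TPM, and the second gives 200 bases around the summit, with the 21 bases centred on the summit in capitals. All are written 5′ to 3′ on the gene's strand, which is the minus strand for these genes, from the RefSeq GRCm38.p6 genome, whose coordinates are those of mm10.
Kif18b hexamer, chr11:102905548-102905577: tttggctgtaatAATAAAcatctctgtctt
Kif18b summit, chr11:102904231-102904430: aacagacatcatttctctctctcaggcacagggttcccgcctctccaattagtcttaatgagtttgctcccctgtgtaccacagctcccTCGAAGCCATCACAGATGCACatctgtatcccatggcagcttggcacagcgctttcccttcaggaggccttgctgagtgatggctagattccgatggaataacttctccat
Sars hexamer, chr3:108426617-108426646: gtgaagccacgcAATAAAgcatctctgggg
Sars summit, chr3:108424438-108424637: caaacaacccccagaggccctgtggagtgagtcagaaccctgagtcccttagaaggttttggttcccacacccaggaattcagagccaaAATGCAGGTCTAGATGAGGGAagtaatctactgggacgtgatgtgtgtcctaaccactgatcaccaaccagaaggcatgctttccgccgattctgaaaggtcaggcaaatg
Mras hexamer, chr9:99387981-99388010: aatgattattttATTAAAgaggtctgtgcc
Mras summit, chr9:99385120-99385319: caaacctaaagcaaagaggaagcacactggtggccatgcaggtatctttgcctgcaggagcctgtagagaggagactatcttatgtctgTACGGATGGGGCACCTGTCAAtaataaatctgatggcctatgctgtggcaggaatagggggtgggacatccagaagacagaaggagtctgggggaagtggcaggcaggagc

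The Kif18b summit lay 1198 bp past the transcript end, with a fold enrichment of 6.63 over the local background. At Sars the distance was 2074 bp and the fold 6.47, and at Mras it was 2759 bp and 6.47. The gene records of Sars and Mras reach farther than these transcripts, and their summits lay 327 bp and 200 bp past the record's end. The summit windows printed thus lie beyond both ends and outside every annotated exon.

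Most Ser2p-only peaks lay at the ends of protein-coding genes and beyond. The summit, the base with the most fragments, was in the gene-end zone, from 1 kb before the annotated end to 10 kb past it, for 510 of 627 peaks (81.3%, 78.1 to 84.3). These zones cover 7.79% of the genome. The share was 73.3% (70.5 to 75.9) for Ser2p peaks with Ser5p, 37.6% (36.1 to 39.0) for all Ser5p peaks and 27.3% (25.8 to 28.8) for Ser5p peaks without Ser2p. Among the rest, 77 Ser2p-only summits were in gene bodies (12.3%), 7 within 1 kb of a gene start and 33 elsewhere (5.26%). By the exons of protein-coding genes, 310 summits lay outside these genes, 195 in exons and 122 in introns. The share in the zone was 74.96% when the zone had to be that of the gene assigned to the peak, and 78.8% among the 519 peaks more than 1 kb from every gene start.

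A gene could be assigned to 592 of the 627 peaks. It was the candidate with the highest TPM in mESCs among protein-coding genes that held the summit in their body or within 10 kb downstream of their end, and 309 peaks had more than 1 candidate. The summit was past the end of that gene for 430 of 592 Ser2p-only peaks (72.6%, 68.9 to 76.2), for 64.7% (61.6 to 67.8) of Ser2p peaks with Ser5p and for 33.2% (31.6 to 34.8) of Ser5p peaks. The median Ser2p-only summit was 1234 bp past the end (95% interval 1055 to 1463, middle 50% of peaks from -371 to 2800 bp). For Ser2p peaks with Ser5p it was 553.5 bp (458 to 653), and for Ser5p peaks it was -4033 bp (-4742 to -3561), inside the gene. Among peaks with a single candidate gene the Ser2p-only median was 1155 bp (849 to 1307), and 199 of 283 summits were past the end (70.3%).

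**Figure D1:**
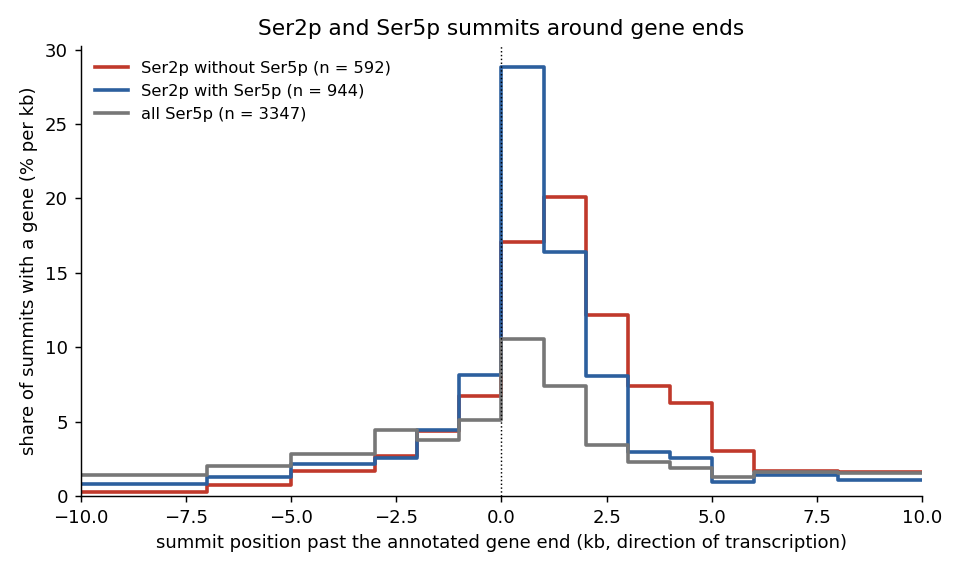
Share of summits per kb (vertical axis, percent per kb of all summits with an assigned gene) against distance from the annotated gene end in kb along the direction of transcription (horizontal axis), for Ser2p-only peaks (red, n = 592), Ser2p peaks with Ser5p (blue, n = 944) and all Ser5p peaks (grey, n = 3347). The red line is highest 1 to 2 kb past the end, at 20.1%, and the blue line within the first 1 kb, at 28.8%.

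The first 1 kb past the end held 17.1% of the Ser2p-only summits and 28.8% of the Ser2p summits with Ser5p. In the next 1 kb the shares were 20.1% and 16.4%, and from 2 to 3 kb they were 12.2% and 8.05%. Read the other way, Ser2p peaks past gene ends lacked Ser5p more often with distance, up to 3 to 5 kb. Of Ser2p peaks within 1 kb past the end 27.1% (22.6 to 31.9) had no Ser5p, at 1 to 2 kb 43.4% (37.5 to 49.5), at 2 to 3 kb 48.6% (40.4 to 57.0) and at 3 to 5 kb 60.9% (52.1 to 69.2). At 5 to 10 kb it was 50.4% (40.9 to 59.98). Before the end it was 31.1% (23.7 to 39.2) more than 10 kb upstream, 33.0% (27.001 to 39.5) at 1 to 10 kb and 34.2% (25.7 to 43.5) in the last 1 kb.

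The peaks were also split at the median fold of all Ser2p peaks, 4.79. Among peaks at or below it, the share without Ser5p was 44.1% (35.8 to 52.6) in the first 1 kb past the end and 79.5% (68.4 to 88.0) at 3 to 5 kb. Above it the shares were 16.5% (11.96 to 22.0) and 38.3% (26.1 to 51.8). The share was thus higher at 3 to 5 kb than in the first 1 kb on both sides of the split. The intervals did not overlap, and stronger peaks lacked Ser5p less often in both of these places. At 1 to 2, 2 to 3 and 5 to 10 kb the shares were 62.9%, 62.5% and 66.7% at or below the median fold. Above it they were 29.1%, 28.3% and 30.0% (17.9 to 44.6). Before the end, from the farthest place to the last 1 kb, they were 37.8%, 39.7% and 36.9% at or below it. Above it they were 20.7%, 24.2% and 30.8% (18.7 to 45.1). These last intervals overlap that at 3 to 5 kb, so above the median fold no steady rise with distance was resolved.

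**Figure D2:**
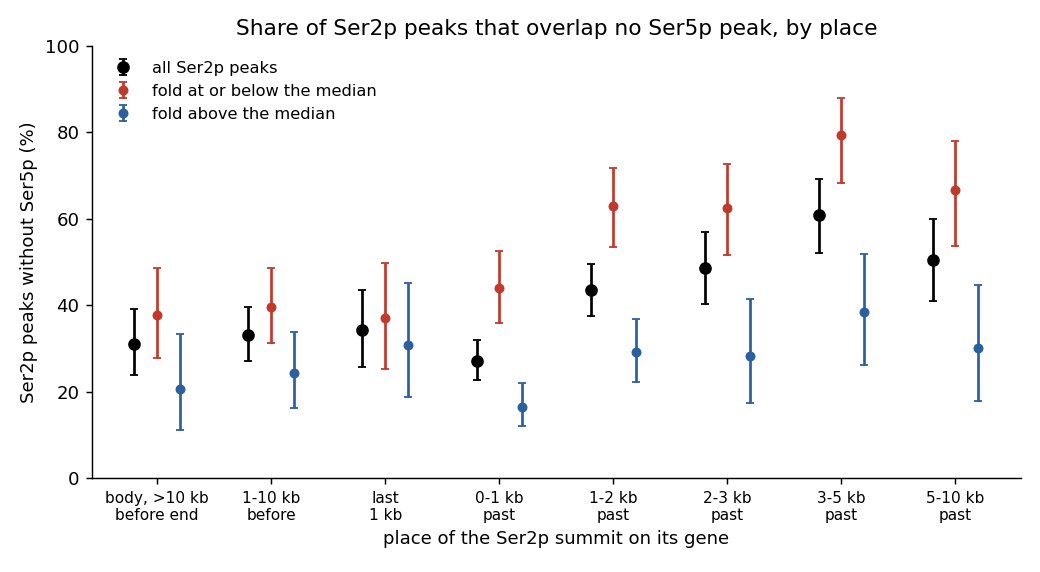
Percent of Ser2p peaks that overlap no Ser5p peak (vertical axis, points with 95% exact Clopper-Pearson intervals) by the place of the summit on its assigned gene (horizontal axis), for all Ser2p peaks (black) and for peaks with a fold at or below (red) or above (blue) the median of 4.79. The black points lie between 27.1% and 34.2% up to 1 kb past the end and reach 60.9% at 3 to 5 kb past it.

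In 126 genes both kinds of Ser2p peak were present. There the median Ser2p-only summit was farther along the gene than the median summit with Ser5p in 72 genes (57.1%, 48.0 to 65.9), with a median difference of 665 bp (-254.5 to 1154). Both intervals include no difference, so the shift past the end seen over all peaks was not resolved within these genes.

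By the readouts that chose them, Ser2p-only peaks were weaker and narrower. Their fold had a median of 4.37 (4.31 to 4.49) and a range of 2.22 to 11.7, against 5.25 (5.08 to 5.39) for Ser2p peaks with Ser5p. Their width had a median of 305 bp (295 to 317) and ran from 200 to 3271 bp, against 584 bp (557 to 620). At a −log10 q of 5 or more stood 68.9% of them against 87.2%. With all Ser2p peaks ranked by fold in 5 groups of 335, the share without Ser5p was 49.9%, 49.9%, 51.0%, 30.7% and 5.67% from the weakest group to the strongest. In each group the peaks without Ser5p were narrower, with medians of 294 against 331 bp in the weakest and 726 against 1283 bp in the strongest. Width moved with the overlap, and its part in it was not tested.

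**Figure D3:**
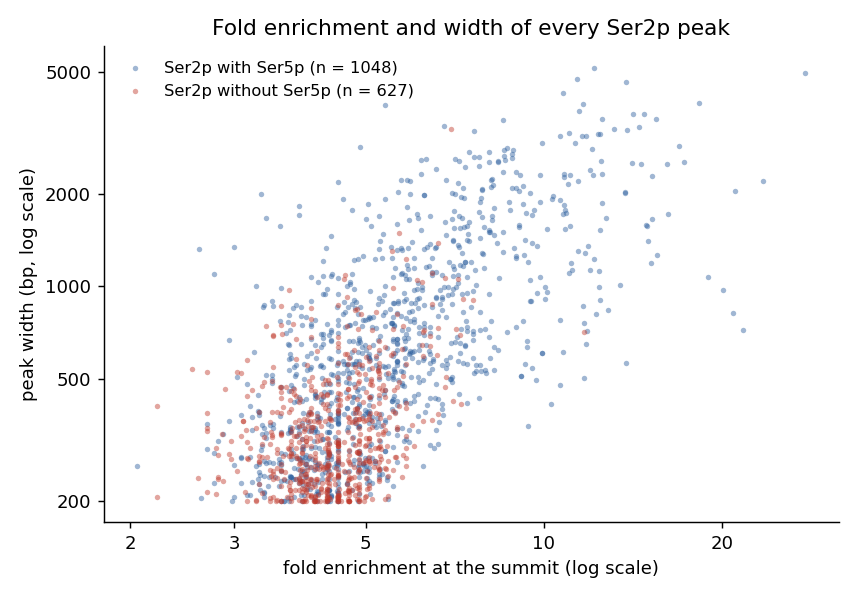
Fold enrichment at the summit (horizontal axis, log scale) and width in bp (vertical axis, log scale) of each Ser2p peak, without Ser5p (red, n = 627) and with Ser5p (blue, n = 1048). Red points sit mostly low and to the left, with median 4.37 and 305 bp against 5.25 and 584 bp, and the highest fold among them is 11.7.

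The nearest Ser5p peak was a median of 16.0 kb away (12.9 to 21.3), with a range from 0.004 to 3289 kb. It was within 1 kb for 134 of the 627 peaks (21.4%), from 1 to 10 kb for 133, from 10 to 100 kb for 277 (44.2%) and beyond 100 kb for 83 (13.2%). The 134 near peaks and the 360 peaks more than 10 kb from Ser5p had like folds, 4.31 (4.15 to 4.49) and 4.49 (4.31 to 4.51), and their genes differed. Genes of the near peaks had a median length of 12.2 kb (10.6 to 14.2) and a median level of 128.8 TPM (82.8 to 170.5). Genes of the far peaks had a median length of 26.9 kb (23.3 to 30.6) and 51.0 TPM (44.2 to 64.0). Far summits were past the gene end in 77.7% (72.9 to 82.0) and near summits in 69.1% (60.1 to 77.1). Where Ser5p was within 1 kb, it lay before the Ser2p-only peak along the gene in 66 of 123 cases (53.7%, 44.4 to 62.7), so neither side was favoured beyond counting error.

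The members just inside the rule were those at Bsg and Ccnb1, each 4 bp from a Ser5p peak, and at Kri1, 16 bp away. Bsg encodes the surface protein basigin and Ccnb1 cyclin B1. Their Ser2p folds were 4.49, 3.75 and 4.49. Just outside were peaks at Eif4g2, Eef1a1 and Naca, which overlapped Ser5p by 1, 5 and 16 bp with folds of 6.63, 3.39 and 4.43.

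Ctr9 was present at nearly every Ser2p-only peak. In mESCs 624 of 627 overlapped a Ctr9 peak (99.5%, 98.6 to 99.9), where the share over all Ser2p peaks was 99.8%, so it is a count near that background. All 1048 Ser2p peaks with Ser5p overlapped Ctr9, and 70.7% (69.2 to 72.2) of Ser5p peaks without Ser2p did. The Ctr9 peaks that held Ser2p-only peaks were broad and strong for their list. Their median width was 3796 bp (3518 to 4100) and their median fold 11.2 (10.7 to 11.7), over 479 distinct Ctr9 peaks, against 391 bp and 3.71 for all 44748 Ctr9 peaks. Seen from the Ctr9 list, 480 of its peaks (1.07%) met a Ser2p-only peak. Of the 479, 92 held several Ser2p-only peaks, up to 8, and 115 (24.0%) also held a Ser2p peak with Ser5p. Per Ser2p peak, the median fold of the Ctr9 peak was 11.5 (11.2 to 11.9) without Ser5p and 15.4 (14.8 to 15.9) with it. The median width of the Ctr9 peak was 4359 bp (4100 to 4694) without Ser5p and 4877 bp (4670 to 5185) with it. Broad and strong Ctr9 peaks were thus not particular to Ser2p-only peaks, and a broad peak is more likely to be met by a 1 bp overlap.

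The Ctr9 summit and the Ser2p-only summit were a median of 414.5 bp apart (324 to 500), and 255 bp apart (219 to 302) at Ser2p peaks with Ser5p. The Ser2p-only summit was the farther along the gene in 288 of 589 cases (48.9%, 44.8 to 53.0), so neither factor was ahead beyond counting error. At Ser2p peaks with Ser5p the Ser2p summit was the farther in 413 of 944 cases (43.8%, 40.6 to 47.0), so there Ctr9 was more often ahead. The 3 Ser2p-only peaks without Ctr9 were weak. They lay 4514 bp past the end of Erf, a repressor of the ETS family, with a fold of 3.85, in an intron of Eps15l1, an endocytic adaptor, with 3.65, and in an intron of Ppp2r2a, a regulatory subunit of phosphatase PP2A, with 3.45. The nearest Ctr9 peaks were 825, 488 and 152 bp away. The summit assigned to Erf was also 196 bp from the start of Gsk3a, which had 38.8 TPM against 39.4 TPM for Erf.

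Marks of gene starts were scarce at Ser2p-only peaks. Of all Ser5p peaks 59.9% overlapped H3K27ac and 27.6% NELFA. Leaving out the Ser2p peaks over Ser5p thus also tends to leave out these marks. Ser2p-only peaks were narrower too, with a median of 305 against 584 bp, which makes a 1 bp overlap less likely. The part of the rule and of width in the shares below was not tested. H3K27ac overlapped 58 Ser2p-only peaks (9.25%, 7.10 to 11.8), where the share over all Ser2p peaks was 24.2%, and 33.1% (30.3 to 36.1) of Ser2p peaks with Ser5p and 66.4% (64.8 to 67.9) of Ser5p peaks without Ser2p overlapped it. The H3K27ac that was present sat near gene starts. Of the 108 Ser2p-only summits within 1 kb of a protein-coding start, 49 overlapped H3K27ac (45.4%, 35.8 to 55.2), and of the 519 others 9 did (1.73%, 0.796 to 3.27). Most of those 108 summits, 101, were also in a gene-end zone, so a gene start lay close to a gene end there. NELFA overlapped 7 Ser2p-only peaks (1.12%, 0.450 to 2.29), against 11.9% over all Ser2p peaks, 18.3% (16.0 to 20.8) of those with Ser5p and 29.6% (28.1 to 31.1) of Ser5p peaks without Ser2p. Of the 7, 6 were within 1 kb of a start. By the highest TPM, they were assigned to genes that included Dgcr8, Gm20716, Ankrd17, Vps33a, Arl2bp and Ddx19a. From the other lists, 63 of 19417 H3K27ac peaks (0.324%) and 7 of 1980 NELFA peaks (0.354%) met a Ser2p-only peak.

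**Figure D4:**
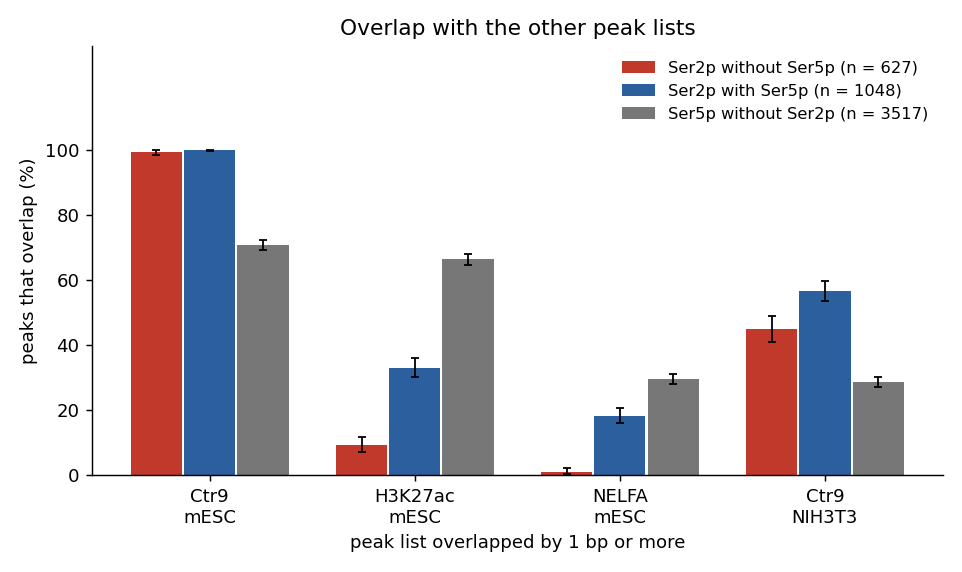
Percent of peaks (vertical axis, bars with 95% exact Clopper-Pearson intervals) that overlap a Ctr9, H3K27ac or NELFA peak of mESCs or a Ctr9 peak of NIH3T3 by 1 bp or more (horizontal axis), for Ser2p-only peaks (red, n = 627), Ser2p peaks with Ser5p (blue, n = 1048) and Ser5p peaks without Ser2p (grey, n = 3517). For Ser2p-only peaks the bars stand at 99.5%, 9.25%, 1.12% and 44.8%.

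The strongest Ser2p-only peaks show both situations. The peaks of Dmtn, an actin-binding protein (fold 7.26), and Thrap3, a protein of RNA processing (6.82), overlapped H3K27ac within 1 kb of the starts of Fam160b2 and Sh3d21. Their summits were 370 and 373 bp from those starts and 1798 and 964 bp past the ends of the genes they were assigned to.

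By contrast, 6 of the 10 strongest had summits 2582 to 8025 bp past the end of an expressed gene, with no H3K27ac. Eif2s2, a subunit of initiation factor eIF2, had a 900 bp peak with a fold of 7.60, 3081 bp past its end and 1068 bp past that of Raly, a candidate on the other strand of lower TPM. Eif4ebp1, the inhibitor of cap-dependent translation, had a fold of 7.31 at 3136 bp. Idh2, a mitochondrial isocitrate dehydrogenase, had 7.21 at 3469 bp. Slc25a36, a mitochondrial carrier, had 7.15 at 8025 bp past its end, and Hnrnpf, an RNA-binding protein, had 7.10 at 2582 bp. Csnk1a1, casein kinase 1 alpha, had 6.98 at 4227 bp, and its peak was the widest of all Ser2p-only peaks, 3271 bp. The next widest were at Tmem39a (1495 bp), at chr11:120224959-120226342 (1384 bp), at Pcbp2 (1306 bp) and at Tra2b (1226 bp). In all, 12 of the 627 peaks were wider than 1 kb.

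The peak at chr11:120224959-120226342 belongs to the 35 that had no protein-coding gene. It was 3898 bp past the end of the noncoding gene 2900052L18Rik, which had 2.07 TPM, with a fold of 6.62, and a pair of further Ser2p-only peaks lay between it and that end. Of the 35 peaks, 19 were at a noncoding gene. Lncenc1, a long noncoding RNA of mESCs with 137.5 TPM in mESCs and 0.354 in NIH3T3, had 2 Ser2p-only peaks 4043 and 6264 bp past its end, with folds of 2.96 and 3.47, and 8 Ser2p peaks with Ser5p of up to 16.2-fold. Mir17hg, the host of a microRNA cluster, had 1 Ser2p-only peak with a fold of 2.94. Of 15 nuclear noncoding RNAs and microRNA hosts looked up, the others, Neat1 and Malat1 among them, had none.

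The 592 peaks fell on 440 genes, of which 342 had 1 Ser2p-only peak, 98 had more and 12 had at least 4. Esrrb and Idh2 had 8 each, Kdm5b 6 and Hnrnpf 5, and Atrnl1 was among those with 4. Hnrnpf, with 459 TPM, had 5 Ser2p-only peaks with summits 1266, 1954, 2582, 4452 and 6194 bp past its end, all in a single Ctr9 peak of 9258 bp that began 1.01 kb before the end. Its folds were 3.77, 5.29, 7.10, 4.49 and 3.92 in that order, highest at the third, and the nearest Ser5p peaks were inside the gene body.

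Kdm5b, a demethylase of histone H3 lysine 4 with 111.5 TPM in mESCs and 10.0 in NIH3T3, had 6 peaks with summits from 571 bp before to 3334 bp past its end. Their folds lay between 3.60 and 5.85. They shared a Ctr9 peak of 10.0 kb, and the nearest Ser5p peak was 73.9 kb or more away. At Idh2 the 8 summits ran from 620 bp before to 8331 bp past the end, with folds between 4.05 and 7.21, in a Ctr9 peak of 12.5 kb, and no Ser5p was within 33.96 kb. Zfp710, which runs the other way with 37.5 TPM, was a candidate for these peaks too, and 6 of the summits were inside it, so which of the genes they belong to cannot be told apart.

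Esrrb, an orphan nuclear receptor of the pluripotency network, had 211 TPM in mESCs and 0 in NIH3T3. Its Ser2p-only summits were at -13994, -2798 and -1447 bp, before its end, and at 384, 1868, 2323, 4773 and 5515 bp past it, with folds between 3.47 and 6.22. Here Ser5p was close. A Ser5p peak 3.83 to 4.08 kb past the end lay under a Ser2p peak of 1347 bp with a fold of 7.18, and the Ser2p-only peaks stood on both sides of it, the nearest 227 bp away. The peaks at Atrnl1 were different in place, though Ser5p was close there too, 283 to 2662 bp away. Its 4 summits were in an intron 41845 to 44178 bp from the gene start, more than 478 kb before the end, in a gene of 2.03 TPM, and they shared a Ctr9 peak of 5103 bp.

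**Figure D5:**
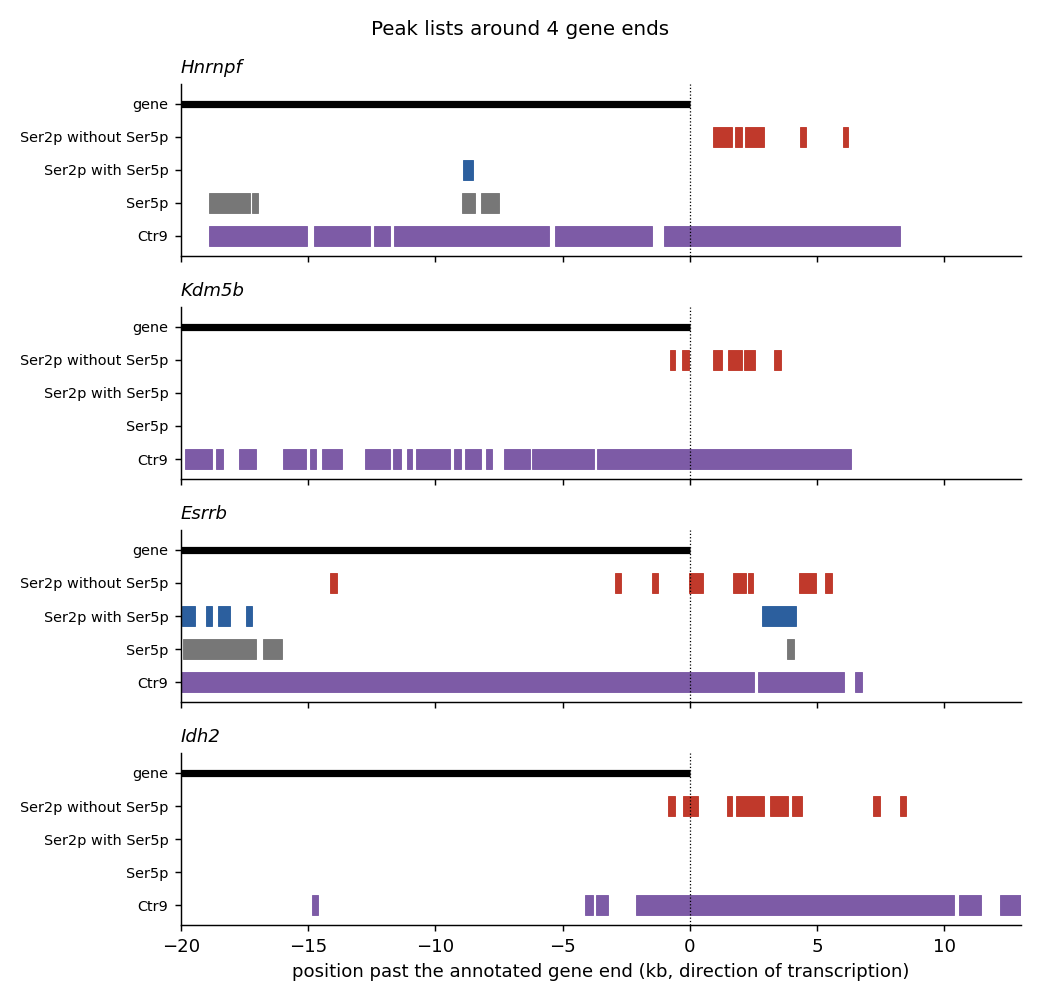
Positions of Ser2p-only peaks (red), Ser2p peaks with Ser5p (blue), Ser5p peaks (grey) and Ctr9 peaks (purple) from 20 kb before to 13 kb past the annotated ends of Hnrnpf, Kdm5b, Esrrb and Idh2, drawn to scale in kb along the direction of transcription, with the gene as a black bar that goes on to the left. Kdm5b and Idh2 have 6 and 8 Ser2p-only peaks and no Ser5p peak in the window, while Esrrb has a Ser5p peak among its 5 Ser2p-only peaks past the end.

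The genes of Ser2p-only peaks were highly expressed. Gene level was the TPM of the transcript with the highest TPM. The median was 67.9 TPM (57.5 to 79.7), against 5.60 TPM over 16158 protein-coding genes above 0 TPM and 83.2 (72.7 to 101.9) for genes of Ser2p peaks with Ser5p. The top 25% of those 16158 genes by level, from 21.6 TPM up, held 363 of the 440 genes (82.5%, 78.6 to 85.9), against the 25% of genes that it holds by definition. It held 81.6% of genes with Ser2p over Ser5p, and 126 genes are in both sets. Among genes with a single kind, it held 79.6% of the 314 with Ser2p-only peaks and 79.4% of the 472 with Ser5p. The kinds of Ser2p peak thus did not differ in this share beyond counting error. Median levels of these single-kind genes were 53.5 TPM (45.5 to 64.3) and 74.3 TPM (61.8 to 90.0). As the gene with the highest TPM was picked among candidates, the choice favours expressed genes. With a single candidate gene 173 of 209 genes were in the top 25% (82.8%, 77.0 to 87.6), and when genes were taken only up to 1 kb past their end it was 59.1% of 320. Only 8.99% of the 4040 genes of the top 25% had a Ser2p-only peak.

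The genes at the extremes of level show the range. Among genes with a Ser2p-only summit in their end zone, the highest levels were those of ribosomal protein genes, among them Rps24 with 3972 TPM, Rps18 with 2530, Rps16 with 2178 and Rpl38 with 2017. Their summits were 1932 to 4443 bp past the end with folds of 4.20 to 5.24, and Ser5p was within 0.390 kb at all 4. The summit assigned to Rps18 was also 281 bp past the end of Wdr46, with 32.7 TPM, and inside B3galt4, with 2.71 TPM. Among the lowest were Prcd (3.10 TPM), Serpini1 (3.03), Kcnrg (1.03) and Col22a1 (0.282). At Prcd the summit was 8870 bp past the end, but 1460 bp past that of the noncoding gene 1810032O08Rik, with 12.1 TPM. At Serpini1 the summit was inside the noncoding gene Platr10, with 63.5 TPM, and at Kcnrg inside Dleu2, with 9.74 TPM. At Rps18, Prcd, Serpini1 and Kcnrg, which gene the peak belongs to cannot be told apart.

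The genes differed in length. Genes of Ser2p-only peaks had a median length of 19.01 kb (16.6 to 21.3), close to the 19.95 kb of the top 25%, and genes of Ser2p peaks with Ser5p 9.12 kb (8.04 to 10.7). The 314 genes with Ser2p-only peaks alone had 21.8 kb (19.7 to 25.8), the 126 with both kinds 14.2 kb (11.7 to 15.7) and the 472 with Ser5p at each Ser2p peak 7.36 kb (6.42 to 8.90). Length moved with the overlap with Ser5p, and its part in that overlap was not tested. Many genes of Ser2p-only peaks had Ser5p elsewhere. A Ser5p peak was within 1 kb of the gene start in 222 of the 440 (50.5%, 45.7 to 55.2), in 44.6% (39.0 to 50.3) of the 314 and in 26.96% (25.6 to 28.4) of the top 25%. The share was higher for genes of Ser2p peaks with Ser5p, at 60.2% (56.2 to 64.1), and 58.9% (54.3 to 63.4) among the 472.

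The gene lists, chosen with earlier results of these data known, are described by counts, beside a share of 2.01% of all 21938 protein-coding genes, and 8.99% of the top 25%, that held a Ser2p-only peak. Of 28 pluripotency genes 19 had a Ser2p peak and 7 had a Ser2p-only peak (25%), with a list median of 173.8 TPM. Tfcp2l1, a transcription factor of naive pluripotency, and Sall4, a zinc finger factor, had only this kind, with folds of 5.21 at 1675 bp past the end and 4.30 at -1832 bp, before it. Tdgf1, a co-receptor of Nodal, had 2 Ser2p-only peaks 3478 and 4195 bp past its end with folds of 6.24 and 4.69, beside 4 Ser2p peaks with Ser5p. Pou5f1, which encodes Oct4, had a Ser2p-only peak 6035 bp past its end with a fold of 4.29, L1td1, an RNA-binding protein, one at 5640 bp with 3.96, and Klf5 one at 3347 bp with 3.46. Sox2, Nanog and Zfp42 had Ser2p peaks only with Ser5p.

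Of 22 translation and ribosome biogenesis factors 17 had a Ser2p peak and 7 a Ser2p-only peak (31.8%), with a list median of 526 TPM. Eif3a, a subunit of initiation factor eIF3, had 3, with summits 1489, 2406 and 4177 bp past its end and folds of 4.87, 4.03 and 4.64, and Nop58, a core protein of snoRNPs, had 1 at 896 bp with 4.93. Neither had a Ser2p peak with Ser5p, whereas Ncl, the nucleolar protein nucleolin, had 3 of those and 1 Ser2p-only peak 2324 bp past its end. Of 25 heat shock and chaperone genes 11 had a Ser2p peak and 5 a Ser2p-only peak (20.0%, list median 351 TPM). Cct5, Cct7 and Tcp1, subunits of the cytosolic chaperonin, had 1 each and no other, at 1261, 1472 and 732 bp past the end with folds of 4.10, 5.39 and 5.24. Of 80 ribosomal protein genes, a list made by symbol after the values were seen, 74 had a Ser2p peak and 8 a Ser2p-only peak (10.0%, list median 1601 TPM). Nearly all thus had a Ser2p peak, while the share with a Ser2p-only peak was near the 8.99% of the top 25% of genes. The 3 of Rpl30 lay 5224 to 7413 bp past its end. Of 67 histone genes, a list made in the same way, 19 had a Ser2p peak and none a Ser2p-only peak (list median 0.729 TPM).

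Of 23 genes of 3′ end processing and termination 5 had a Ser2p peak and 2 a Ser2p-only peak (8.70%, list median 31.6 TPM). Pcf11, whose protein binds Ser2p, had 3, with summits 511, 2271 and 3256 bp past its end, folds of 3.60, 3.85 and 4.72 and no Ser2p peak with Ser5p, although the nearest Ser5p was 175 bp from the last. Pabpn1, a nuclear poly(A) binding protein, had 1 at 2559 bp with 3.98. Of 29 kinases, phosphatases and elongation factors acting on the polymerase tail, only Cdk13 had a Ser2p peak, a Ser2p-only peak in its body with a fold of 5.13 (3.45%, list median 37.2 TPM). Of 14 glycolysis genes 7 had a Ser2p peak and Ldha and Tpi1 a Ser2p-only peak (14.3%), 1157 and 1055 bp past the end. Of 15 cytoskeleton genes 6 had a Ser2p peak and none a Ser2p-only peak, and of 12 fibroblast genes none had either.

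Between the cell lines, genes of Ser2p-only peaks were more often higher in mESCs than genes at large. The peaks were called in mESCs, and each went to the candidate gene of highest TPM in mESCs. The choice thus favours genes higher in mESCs, so the shares are given as description, against genes not matched for level. With log2 of TPM plus 1, 80 of 436 were at least 4-fold higher in mESCs than in NIH3T3 (18.3%, 14.8 to 22.3), where 9.46% of all 12379 genes tested were. At least 4-fold lower were 4 (0.917%, 0.251 to 2.33), where 8.81% of all genes were. Their median log2 ratio was 0.65 (0.52 to 0.77) against 0.13 over all genes tested. For genes of Ser2p peaks with Ser5p the shares were 16.9% (14.0 to 20.2) and 1.37% (0.592 to 2.68), so both kinds of Ser2p peak gave like values. In bulk RNA, fewer cells with a transcript and less of it per cell cannot be told apart.

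Ctr9 of NIH3T3 overlapped 281 Ser2p-only peaks (44.8%, 40.9 to 48.8), against 52.3% over all Ser2p peaks, 56.8% (53.7 to 59.8) of those with Ser5p and 28.6% (27.1 to 30.2) of Ser5p peaks without Ser2p. This followed the RNA. Of Ser2p-only peaks whose gene was at least 4-fold higher in mESCs, 14 of 121 overlapped it (11.6%, 6.47 to 18.7), and of those whose gene was within 4-fold, 260 of 455 (57.1%, 52.5 to 61.7). No Ser2p or Ser5p data of NIH3T3 were used here. In the NIH3T3 list 251 of 22016 Ctr9 peaks (1.14%) met the position of a Ser2p-only peak.

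The sequence around the summits and the polyadenylation hexamers did not set Ser2p-only peaks apart from other Ser2p peaks. In 300 bases around the summit the median share of G or C was 50.7% (49.7 to 51.3) for 592 Ser2p-only peaks, 51.0% (50.0 to 52.0) for Ser2p peaks with Ser5p and 56.3% (55.7 to 57.0) for Ser5p peaks without Ser2p. AATAAA on either strand was in 19.4% (16.3 to 22.8), 20.0% (17.5 to 22.7) and 15.9% (14.5 to 17.4) of these windows. In the last 50 bases of the transcript with the highest TPM, on the gene's strand, AATAAA or ATTAAA was present in 243 of 361 genes with a Ser2p-only peak in their end zone (67.3%, 62.2 to 72.1). It was present in 68.7% (64.4 to 72.8) of genes with a Ser2p peak over Ser5p there, in 73.6% (72.2 to 74.9) of the top 25% and in 67.0% (66.2 to 67.7) of all genes above 0 TPM. A hexamer in these windows is a match of letters, and its use in these cells was not measured.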

How the data were processed

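Each ChIP-seq list came from 1 library. Per the study's methods, reads were mapped to mm10 (bowtie2 2.3.5.1), those in blacklisted regions were dropped, and macs2 2.2.6 called the peaks with q up to 0.01. The fold the authors deposited is the ratio of fragments at the summit over those expected locally. Beside it they deposited −log10 p, −log10 q and a score made from q. For RNA, estimated counts and TPM per transcript were deposited for 1 library per line, made with kallisto 0.46.1 from GENCODE M19. The NIH3T3 H3K27ac list was not used here.

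Overlap meant 1 bp or more. Positions used GENCODE M21 genes on the same build (GRCm38, mm10), and a peak went to the protein-coding gene of highest TPM with the summit in its body or up to 10 kb past its end. For RNA the log2 ratio used TPM plus 1, among genes with 1 TPM or more in either line, and 1 library each means that called is past 4-fold. Shares have exact Clopper-Pearson intervals and medians distribution-free order-statistic intervals, at 95%. Sequences were read from the RefSeq GRCm38.p6 genome, and no window of chromosome 18 is printed. Computations used Python 3.11.15, pandas 2.3.3, NumPy 2.4.6, SciPy 1.17.1 and Matplotlib 3.10.9, and the overlap, position and interval code was tested on simulated data, where 7 of 7 checks passed.

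The members and gene lists were chosen with earlier results of these data known. Genes were named by rule: the 10 highest folds, the 5 widest, those without Ctr9, the 5 genes with most Ser2p-only peaks (ties by position), the 5 highest and 5 lowest TPM with a summit in the end zone, the 3 on each side of the overlap rule, and list genes with a Ser2p-only peak. Some genes that this rule names are not reported here. The printed sequences, the noncoding genes, the genes near H3K27ac or NELFA and Raly, Zfp710, Platr10 and Dleu2 were named after their values were seen. Gsk3a, Wdr46 and B3galt4 were also named in this way. Alternatives changed the overlap rule, the q threshold, the zone, the summary and the expression measure, 30 listed at the outset and 6 added later.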

Additional observations from a re-analysis of the deposited data

How the results depend on the processing

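Of 36 alternatives over 7 results, 24 stayed within the interval of the reported value (within 1.5 times for the count) and none reversed a direction. The number of Ser2p-only peaks was 401 when Ser5p within 5 kb also removed a peak. The Ctr9 share was 100% with Ctr9 counted within 1 kb and 98.1% with the strongest 25% of Ctr9 peaks. The gene-end share was 74.2% with the zone cut at 5 kb, 87.1% with all genes and 74.96% in the zone of the assigned gene. The median fold was 4.72 and the median width 337 bp at a −log10 q of at least 5, the mean width was 370 bp, and the median width was 281 bp at folds up to the Ser2p median. The share of genes in the top 25% was 59.1% with genes taken up to 1 kb past their end. The share higher in mESCs was 38.3% at 2-fold, where the share of all genes tested was 23.8%, and 20.4% against 15.4% with a pseudocount of 0.1 and 18.2% against 5.35% without the TPM filter. No paired analysis was possible because every group compared has 1 library. The depth of the ChIP-seq libraries is unknown, so a missing Ser5p peak means that none was called, not that Ser5p was absent.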
